A study of Mus musculus with 16 samples.

Results

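The genes described here are 9 genes of the type I interferon response, Ifit1, Ifit3, Isg15, Oasl1, Oas1a, Irf7, Usp18, Rsad2 and Ifi44, followed across the livers of 16 mice. They were taken as all probes whose gene name in the scanner files is one of these symbols, which gave 13 probes. All 9 genes passed the filter on dim probes and were among the 20403 genes tested. The probe that stood for each of them, the brightest probe of the gene on average, was called well above background on all 16 arrays and was saturated on none.

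The study asked how the liver of conventional mice responds to caecal microbiota transferred from lean or obese donors. Recipients were C57BL/6 males on normal chow (NC) that had received no antibiotics, and the labels give their age as 10 weeks. Conv + PBS mice (n = 6, mice 1 to 6) were gavaged with reduced PBS, the vehicle, and are described in the labels only as controls without a transplant. Conv + LM mice (n = 5, mice 13 to 17) received the caecal microbiota of lean mice. Conv + OM(HFD) mice (n = 5, mice 25, 26, 28, 29 and 30) received that of mice made obese by a high-fat diet. All recipients were gavaged once per week for 2 weeks and were killed after a fast of 6 h. Each inoculum was pooled from several donors, and recipients were housed in groups of 5 or 6 per cage, so that group, inoculum and cage cannot be told apart here. Nothing beyond the mouse numbers was available on litter, so p-values measure the spread between mice kept in this way.

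Type I interferons are cytokines released by cells that sense nucleic acids or microbial products. They bind the receptor made of Ifnar1 and Ifnar2, whose kinases Jak1 and Tyk2 then pass the signal on to transcription factors. A complex that contains Irf9 binds a DNA element built of GAAA repeats in front of many genes of this response. In the liver, hepatocytes as well as Kupffer cells and other leukocytes carry this response, and gut microbes are known to keep a low level of it going in healthy animals.

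RNA of each liver was labelled with Cy3 and hybridized to a mouse Agilent SurePrint array, 1 array per mouse, on 2 slides. Values are given throughout as log2 intensity minus the 75th percentile of the same array, so that 0 is the level of that percentile and a difference of 1 is a 2-fold difference. Probes differ in how brightly they bind, so levels are compared between mice and not between genes. The 75th percentile lay between 153 and 220 intensity units, and between 49.7% and 58.3% of the probes were well above background. The hepatocyte markers Alb, Apoa1, Ttr and Tat were well above background on all 16 arrays, with a mean between 9.08 and 9.64. Slide 1 held 3 mice of Conv + PBS, 2 of Conv + LM and 3 of Conv + OM(HFD), and slide 2 held 3, 3 and 2.

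The promoters of these genes were searched for the GAAA element described above. Since genes of this response are known for that element, matches are in part built into the choice of genes and are given as a description. RefSeq windows of 300 bases (GRCm38.p6, 250 before and 50 after the start of the transcript) were available for 8 of the 9 genes and were searched on both strands for GAAANNGAAA, where N is any base. On the other strand the motif reads TTTCNNTTTC. It occurred in 5 of the 8 windows, those of Ifit1, Ifit3, Isg15, Oas1a and Rsad2, and in 3.44% of all 32851 windows. Counted by gene, it occurred in 3.99% of all 27025 genes with a window and in 3.81% of the 11528 among the genes tested. The windows of Oasl1, Irf7 and Ifi44 did not hold these letters. The stretches around the matches are shown for these 5 genes because they are what the promoters share, 5′ to 3′ on the strand of the gene, with the matches in capitals and neighbouring or overlapping matches run together. They lie at chr19:34640760-34640838 (+ strand, Ifit1), chr19:34583348-34583441 (+ strand, Ifit3), chr4:156200850-156200921 (- strand, Isg15), chr5:120907526-120907570 (- strand, Oas1a) and chr12:26456538-26456597 (- strand, Rsad2).
Ifit1: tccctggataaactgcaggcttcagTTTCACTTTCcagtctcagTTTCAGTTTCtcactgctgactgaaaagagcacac
Ifit3: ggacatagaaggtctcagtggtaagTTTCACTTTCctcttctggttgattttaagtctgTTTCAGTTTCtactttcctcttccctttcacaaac
Isg15: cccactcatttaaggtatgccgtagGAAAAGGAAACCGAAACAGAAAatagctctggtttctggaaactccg
Oas1a: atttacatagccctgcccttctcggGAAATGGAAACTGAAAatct
Rsad2: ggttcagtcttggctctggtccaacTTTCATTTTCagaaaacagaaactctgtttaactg

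Ifit1 and Ifit3 each held 2 separate matches, at 104 and 85 bases before the start in Ifit1 and at 156 and 122 bases in Ifit3. In Isg15 3 overlapping matches lay between 78 and 66 bases before the start, in Oas1a 2 overlapping matches at 20 and 14 bases, and in Rsad2 1 match at 120 bases. Among the other genes of the pathway, 10 of 29 windows of further interferon targets and 8 of 9 windows of interferon-gamma GTPases held the motif, as did 10 of 17 of ligands, 3 of 11 of sensing genes, 1 of 4 of kinases and factors, 1 of 6 of inhibitors and 0 of 3 of receptors. A match describes the letters only and says nothing of binding in these livers.

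Across the 3 conditions, none of the 9 genes differed beyond the spread between mice. At an unadjusted limma p under 0.05, 0 of the 9 passed in Conv + OM(HFD) vs. Conv + PBS mice, where 3.25% of all genes tested did. In Conv + LM vs. Conv + PBS mice it was again 0 of 9, with 3.88% of all genes, and in Conv + OM(HFD) vs. Conv + LM mice 0 of 9, with 2.67%. After Benjamini-Hochberg adjustment 0.0% of the 20403 genes passed in each of the 3 comparisons, and the methods' t-test, listed there for the study in general and not for the arrays, also called 0 of the 9 and no gene after adjustment, with 608, 746 and 587 genes at an unadjusted p under 0.05. The first and the second comparison share the Conv + PBS mice, so their values are given side by side and not set against each other.

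In Conv + OM(HFD) vs. Conv + PBS mice, 5 of the 9 genes had a higher and 4 a lower mean, with a median log2 fold change of 0.06 beside -0.00211 over all genes. Single mice decided this split, which was 1 higher and 8 lower without mouse 25 (median -0.16) or mouse 6 (median -0.08), and 7 higher and 2 lower without mouse 29 (median 0.04) or mouse 30 (median 0.19). The log2 fold changes ran from -0.29 (Ifit1) to 0.16 (Rsad2), and the smallest limma p was 0.439 (Ifit3). For Conv + LM vs. Conv + PBS mice the median was -0.00937 beside -0.01 over all genes, with 4 genes higher, 5 lower and a smallest limma p of 0.304 (Rsad2). The values there ran from -0.20 (Ifi44) to 0.36 (Oasl1). For Conv + OM(HFD) vs. Conv + LM mice the median was -0.04 beside 0.00342 over all genes, with 4 higher and 5 lower, a range from -0.38 (Oasl1) to 0.19 (Irf7) and a smallest limma p of 0.260 (Irf7). The split in the second comparison was 7 higher and 2 lower without mouse 16 (median 0.06), 6 and 3 without mouse 1 (0.10) or mouse 2 (0.04), and 3 and 6 without mouse 6 (-0.15). That in the third was 1 and 8 without mouse 25 (-0.27), 8 and 1 without mouse 30 (0.16), 6 and 3 without mouse 13 (0.09) and 2 and 7 without mouse 15 (-0.04). Every 95% interval contained 0. In each comparison 8 of the 9 intervals lay between -1 and 1 on the log2 scale. The exceptions were Ifit1 in Conv + OM(HFD) vs. Conv + PBS mice (-1.07 to 0.50) and Oasl1 in both comparisons with Conv + LM mice (-0.43 to 1.15 against Conv + PBS and -1.20 to 0.44 for Conv + OM(HFD) against Conv + LM). In exact two-sided permutation tests of single genes over the mice, p lay between 0.175 and 0.974 in 27 tests, and the groups overlapped in all 27. Groups that did not overlap were rare among all genes too, at 0.226% in Conv + OM(HFD) vs. Conv + PBS, 0.28% in Conv + LM vs. Conv + PBS and 0.428% in Conv + OM(HFD) vs. Conv + LM mice.

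**Figure D1:**
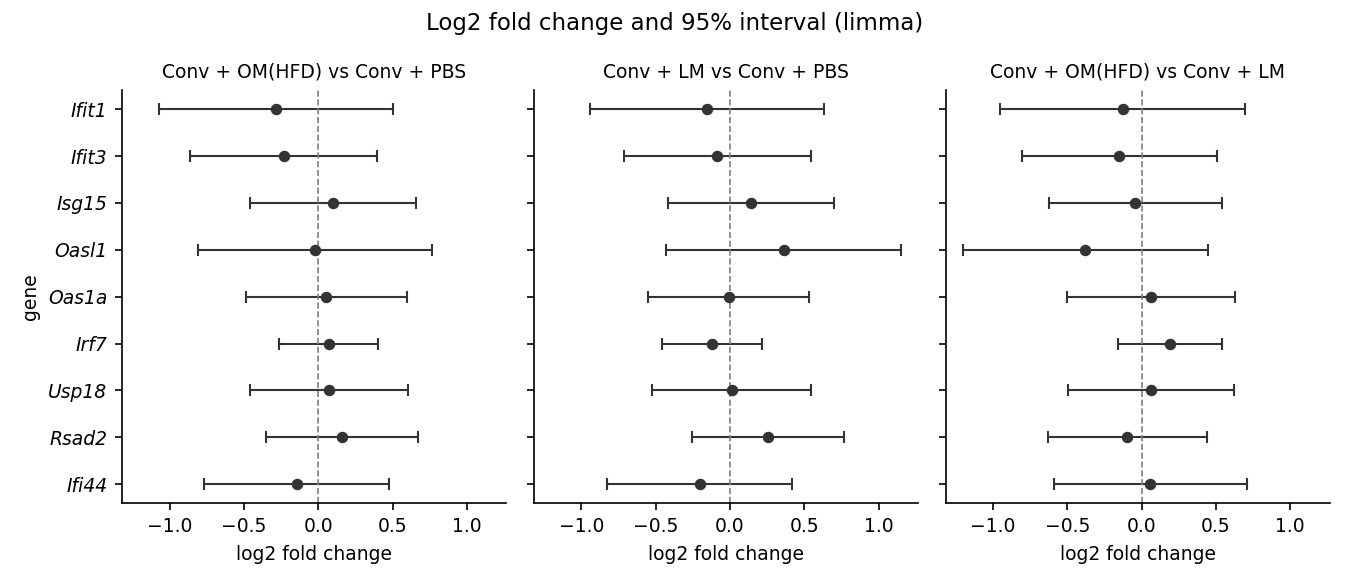
Log2 fold change (x axis, points) of each of the 9 genes (y axis) with its 95% interval from limma (bars) in the 3 comparisons, with a dashed line at 0. All 27 intervals cross 0, and the widest belong to Ifit1 and Oasl1.

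Some mice lay on the same side of their group mean for all or nearly all of the 9 genes. Mice 5, 6, 25 and 30 deviated from their group mean in 1 direction in 9 of 9 genes and mice 1, 13 and 16 in 8 of 9, while mice 4, 15, 17 and 29 split 5 to 4. Beyond 1 pooled within-group SD in that direction were mouse 6 in 9 genes, mice 25 and 30 in 7, and mouse 1 in 5. For mice 13 and 16 it was 2 genes, and for mouse 5 it was 0. No single value was an outlier of its group by Dixon's test (critical gap over range 0.625 for 6 mice and 0.71 for 5). In whole liver, more cells carrying this response and more RNA of it per cell cannot be told apart. Averaged over the 9 genes, the level was 1.40 ± 0.47 (SD, n = 6) in Conv + PBS, 1.42 ± 0.24 (SD, n = 5) in Conv + LM and 1.37 ± 0.50 (SD, n = 5) in Conv + OM(HFD) mice. Conv + PBS mice ran from 0.57 (mouse 6) to 1.83 (mouse 1). Conv + LM mice ran from 1.17 (mouse 16) to 1.81 (mouse 13). Conv + OM(HFD) mice held both the highest value of the series, 2.10 (mouse 25), and the second lowest, 0.72 (mouse 30). Mouse 6 was the lowest Conv + PBS mouse in 9 of 9 genes. Within Conv + OM(HFD), mouse 25 was the highest in 7 of 9 and mouse 30 the lowest in 8 of 9. The whole range of the 3 group means, from 1.37 to 1.42, is thus small beside the distance between mice of the same group.

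**Figure D2:**
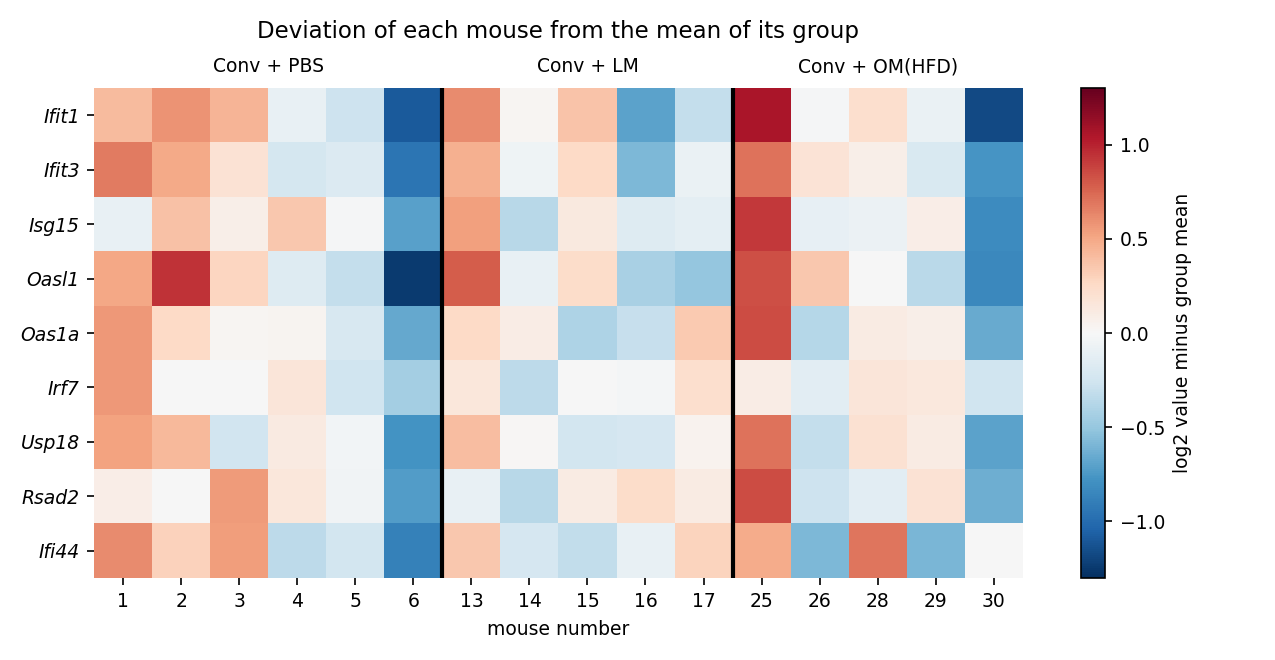
Log2 value minus the mean of the mouse's own group (colour) for each gene (rows) in each mouse (columns, by group). Mice 5 and 6 (Conv + PBS) and mouse 30 (Conv + OM(HFD)) are below their group mean in 9 of 9 genes, mouse 5 by at most 0.31, and mouse 25 (Conv + OM(HFD)) is above it in 9 of 9.

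Irf7 is the transcription factor that amplifies the response by driving further interferon genes (probe at chr7:148449104-148449163, - strand, of mm9, the build of the array design). In Conv + PBS mice its lowest, median and highest values were 4.99, 5.43 and 6.00. In Conv + LM mice the values were 5.46, 4.97, 5.31, 5.29 and 5.53 in mice 13 to 17. In Conv + OM(HFD) mice they were 5.60, 5.36, 5.67, 5.64 and 5.25 in mice 25, 26, 28, 29 and 30. Irf7 varied least of the 9 genes and its groups overlapped. Mice 6 and 30 were the lowest of their groups, but mouse 25 did not stand out. Its log2 fold change was 0.07 ± 0.16 (SE) in Conv + OM(HFD) vs. Conv + PBS, -0.12 ± 0.16 in Conv + LM vs. Conv + PBS and 0.19 ± 0.16 in Conv + OM(HFD) vs. Conv + LM mice. A second probe of Irf7 went with the first (r = 0.83 across mice) but gave 0.07 in place of -0.12 for Conv + LM vs. Conv + PBS mice.

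Isg15 encodes a ubiquitin-like protein that is attached to other proteins during the response, and Usp18 the protease that removes it and also damps signalling at the receptor. Their probes lie at chr4:155573649-155573708, - strand, and at chr6:121220874-121220933, + strand (mm9). For Isg15, the Conv + PBS mice had a lowest, median and highest value of 2.37, 3.10 and 3.45. Values of 3.75, 2.85, 3.33, 3.05 and 3.08 were found in mice 13 to 17 of Conv + LM. In Conv + OM(HFD) they were 4.09 (mouse 25), 3.07, 3.09, 3.25 and 2.35 (mouse 30). Mice 25 and 30 were thus the highest and the lowest of all 16, a 3.34-fold distance within 1 group, while the means of the 3 groups lay between 3.07 and 3.21. For Usp18, mice 25 and 30 were again the highest and the lowest of their group. Conv + PBS mice had a lowest, median and highest value of 0.47, 1.29 and 1.78, and Conv + LM mice had 1.66, 1.28, 1.02, 1.05 and 1.31. Conv + OM(HFD) mice had 2.03, 1.01, 1.52, 1.43 and 0.62. The groups overlapped for both genes, with log2 fold changes of 0.10 ± 0.26 (SE) for Isg15 and 0.07 ± 0.25 for Usp18 in Conv + OM(HFD) vs. Conv + PBS mice, and of 0.14 ± 0.26 and 0.01 ± 0.25 in Conv + LM vs. Conv + PBS mice.

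Ifit1 and Ifit3 belong to a family of proteins with tetratricopeptide repeats that bind foreign RNA or the proteins around it. They are neighbours on chromosome 19, where both stretches shown above lie, with probes at chr19:34723827-34723886, + strand, and at chr19:34663105-34663164, + strand (mm9). Ifit1 and Oasl1 had the largest SD within groups of the 9 genes. Its lowest, median and highest values were -1.69, -0.44 and -0.01 in Conv + PBS mice. The Conv + LM mice had -0.14, -0.74, -0.39, -1.45 and -1.07. In Conv + OM(HFD), mouse 25 had 0.17 and mouse 30 had -2.06, a 4.72-fold distance, with -0.90, -0.67 and -0.97 between them. All 3 groups overlapped, and the means were -0.60, -0.76 and -0.89. Ifit3 had the same mice at the ends of each group, apart from the highest Conv + PBS mouse, and ran from -0.13 to 1.50 in Conv + PBS, from 0.15 to 1.21 in Conv + LM and from -0.18 to 1.30 in Conv + OM(HFD). The log2 fold changes in Conv + OM(HFD) vs. Conv + PBS mice were -0.29 ± 0.37 (SE) for Ifit1 and -0.23 ± 0.29 for Ifit3. In Conv + LM vs. Conv + PBS mice they were -0.16 ± 0.37 and -0.08 ± 0.29. Ifit3 has a close copy, Ifit3b, and a probe may read both.

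Oas1a makes the short chains of adenylate that switch on RNase L, and Oasl1 is a related protein that is known to hold back the translation of Irf7. The probes lie at chr5:121346735-121346794, - strand, and at chr5:115387861-115387920, + strand (mm9). For Oas1a, Conv + PBS mice had a lowest, median and highest value of 1.34, 2.03 and 2.56. The values were 2.25, 2.09, 1.60, 1.70 and 2.34 in Conv + LM and 2.91, 1.69, 2.16, 2.13 and 1.40 in Conv + OM(HFD) mice. Mouse 25 was again on top and the groups overlapped, with log2 fold changes of 0.06 ± 0.25 (SE) in Conv + OM(HFD) and -0.00937 ± 0.25 in Conv + LM vs. Conv + PBS mice. Oasl1 had the widest range of all, 5.24-fold between mouse 6 of Conv + PBS and mouse 13 of Conv + LM. Its lowest, median and highest values were 0.99, 2.29 and 3.17 in Conv + PBS mice. In Conv + LM mice they were 3.38, 2.50, 2.83, 2.18 and 2.09, and in Conv + OM(HFD) mice 3.06, 2.57, 2.21, 1.86 and 1.38. The Conv + LM mean was the highest, with a log2 fold change of 0.36 ± 0.37 (SE) over Conv + PBS, and was within the spread of the mice (exact permutation p = 0.403). Conv + OM(HFD) against Conv + PBS mice gave -0.02 ± 0.37. The other probe of Oasl1 (r = 0.84 with the first) gave -0.35 for the latter and 0.05 for the former, so that even the size of these small differences depends on the probe.

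Rsad2 (viperin) makes a modified nucleotide that stops viral RNA synthesis, and Ifi44 is a cytoplasmic protein of the response. The probes lie at chr12:27127859-27127918, - strand, and at chr3:151394035-151394094, - strand (mm9). Rsad2 had a lowest, median and highest value of -1.03, -0.27 and 0.25 in Conv + PBS mice. It had -0.14, -0.41, 0.06, 0.19 and 0.06 in Conv + LM and 0.70, -0.41, -0.28, 0.04 and -0.78 in Conv + OM(HFD) mice. Mouse 25 was the highest of all 16, mouse 6 the lowest, and the groups overlapped. The log2 fold change was 0.16 ± 0.24 (SE) in Conv + OM(HFD) and 0.26 ± 0.24 in Conv + LM vs. Conv + PBS mice. A second Rsad2 probe (r = 0.86) gave -0.03 for the former. Ifi44 broke the layout in Conv + OM(HFD) mice, where mouse 28 (-0.77) and not mouse 25 (-0.98) was the highest and mice 26 (-2.05) and 29 (-2.06), not mouse 30 (-1.48), were the lowest. Its Conv + LM mice had -1.18, -1.75, -1.85, -1.63 and -1.24. Conv + PBS mice had a lowest, median and highest value of -2.20, -1.29 and -0.71. The fold changes of Ifi44 were -0.15 ± 0.29 (SE) and -0.20 ± 0.29 against Conv + PBS mice in the same order.

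**Figure D3:**
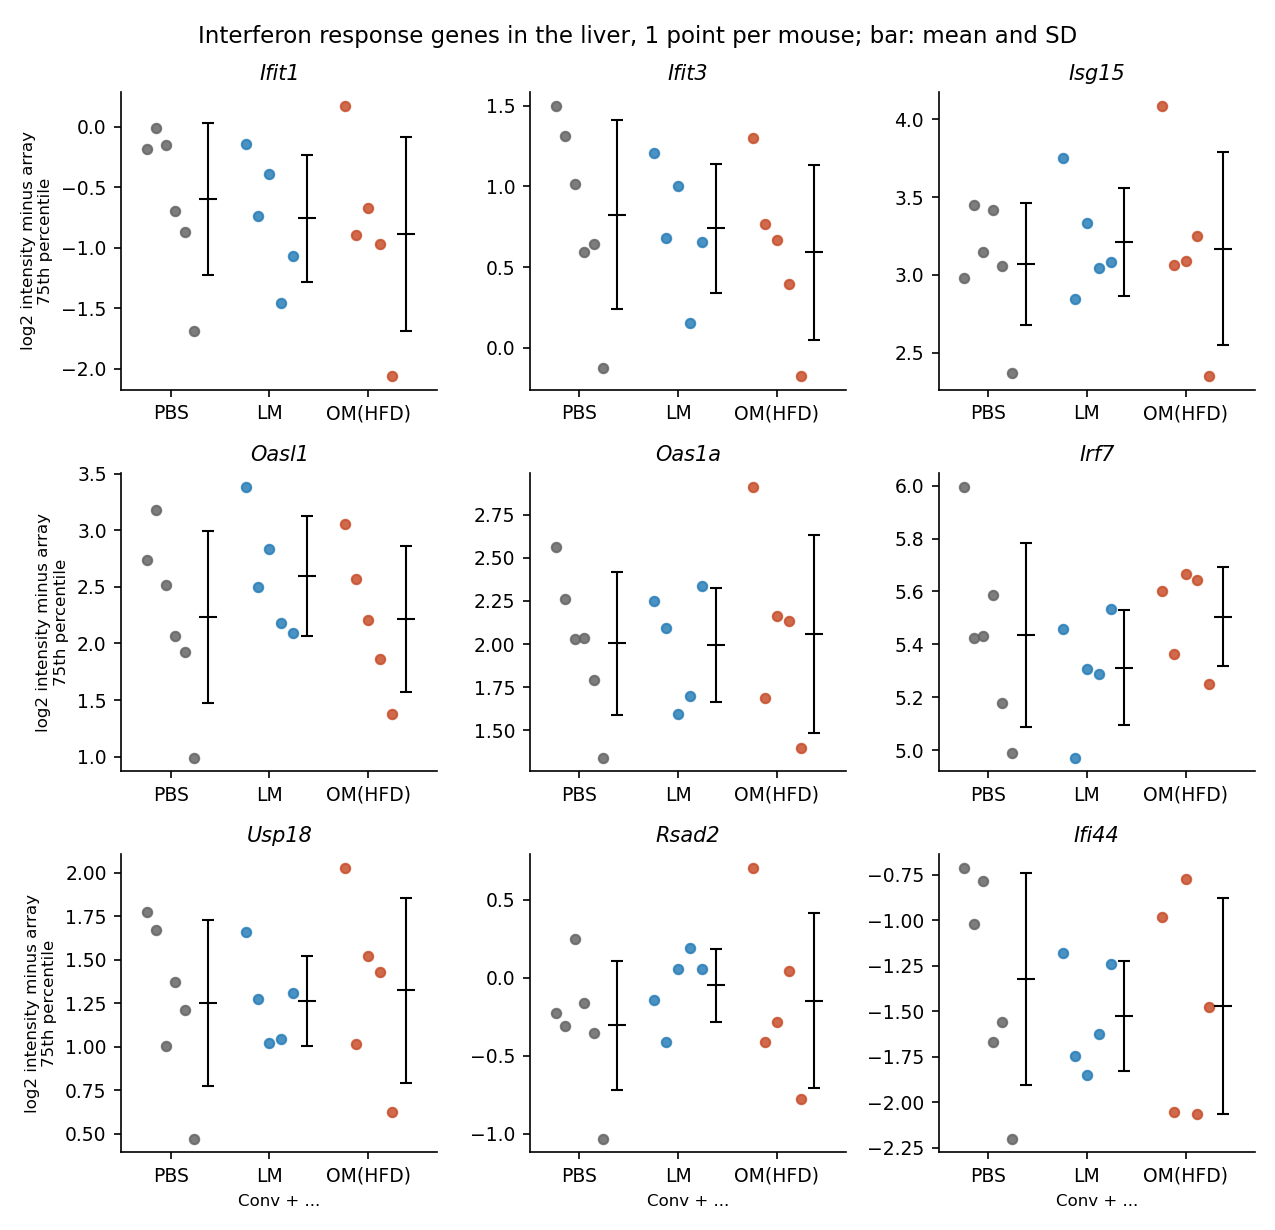
Log2 intensity minus the 75th percentile of the array (y axis, scaled per gene) for each of the 9 genes by group (x axis, Conv + PBS, Conv + LM, Conv + OM(HFD)). Each point is a mouse, and the cross line and bar beside the points are the mean and SD. In all 9 panels the groups overlap.

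Within groups, 8 of the 9 genes varied more than 75% of all genes tested. The SD within groups was 0.66 for Ifit1 and for Oasl1, at the percentiles 92.04 and 92.03 among all genes, and 0.52 for Ifit3 (percentile 86.0). Irf7 had an SD of 0.27 (percentile 56.5), near the median over all genes of 0.24. The Conv + LM mice were the most alike: their SD was below that of Conv + PBS mice in 9 of 9 genes and below that of Conv + OM(HFD) mice in 8 of 9, the exception being Irf7. The difference in spread between groups was not tested, and since the genes move together these counts are not independent. They also include mouse 6, the lowest Conv + PBS mouse in 9 of 9 genes, and the SD of that group without it was not computed.

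To describe the coordination of the genes, the mean of its group was taken from each mouse's value and all 36 pairs were correlated across the 16 mice. Every pair was positively correlated, with a median Pearson r of 0.675 and a range from 0.39 (Isg15 and Ifi44) to 0.95 (Ifit1 and Ifit3). With r of at least 0.7 there were 16 of the 36 pairs, compared with 1.05% of all pairs among the genes tested, whose median r was 0.02. With 100000 permutations of mice within groups and Benjamini-Hochberg adjustment over the 36 pairs, 28 pairs passed an adjusted p of 0.05 by Pearson's r and 16 by Spearman's rho, whose median was 0.57. The 3 closest pairs were Ifit1 with Ifit3 (rho = 0.94, adjusted permutation p = 0.00012 for r), Ifit3 with Oasl1 (r = 0.94, rho = 0.94, same adjusted p) and Oas1a with Usp18 (r = 0.93, rho = 0.91, adjusted permutation p = 0.00018). The smallest p that these permutations can give is 1e-05 before adjustment. Within slide 1 the median r was 0.850 and within slide 2 it was 0.711, with 8 mice each.

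**Figure D4:**
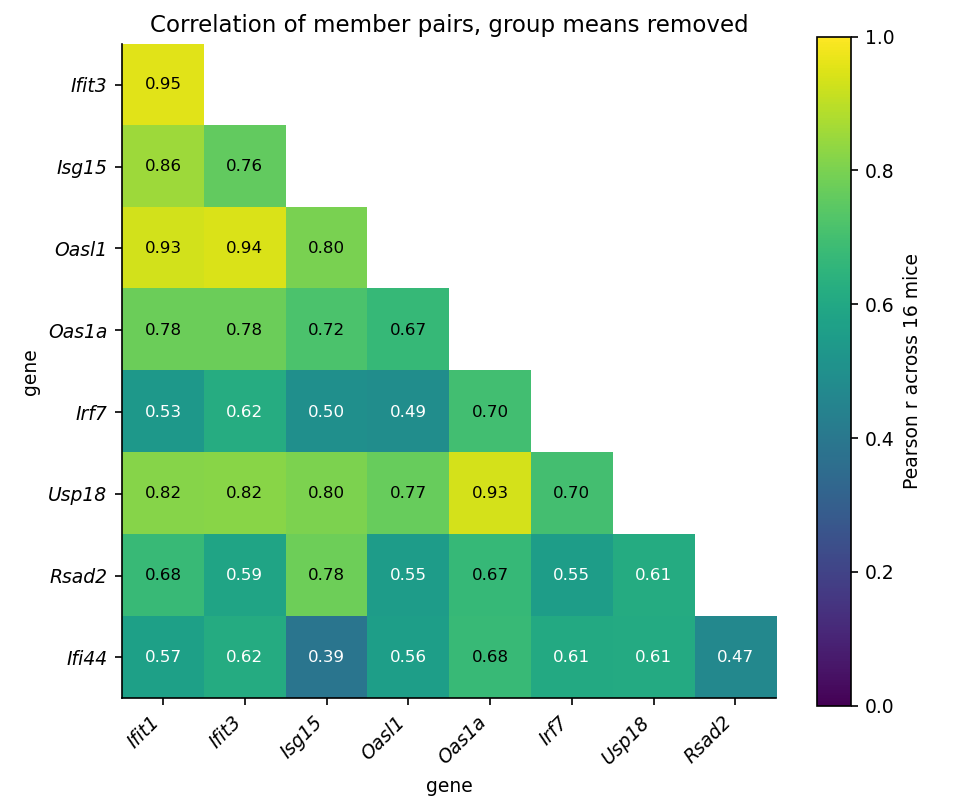
Pearson r (colour and number) of every pair of the 9 genes across 16 mice after removal of the group means. All 36 values are above 0, from 0.39 to 0.95, with the lowest ones in the rows of Irf7, Rsad2 and Ifi44.

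The pairs were also correlated without the mice at the ends. Since such mice are picked by the very values that are correlated, a lower r follows from the smaller range, and these values are given as descriptions only. Leaving out for each pair the 2 mice farthest from the median of its first gene, with mouse 6 among them for every first gene but Isg15, kept all 36 pairs above 0, with a median r of 0.55 and a lowest of 0.18. Without mice 6, 25 and 30, chosen after their values were seen, the median r over the remaining 13 mice was 0.37 and 4 pairs had an r of at least 0.7. These were the 3 pairs among Ifit1, Ifit3 and Oasl1 (r = 0.90, 0.87 and 0.87) and Oas1a with Usp18 (r = 0.84). There were then 31 pairs above 0, and the 5 below 0 all held Rsad2, down to -0.34 with Usp18. Leaving out 1 mouse at a time gave a median r between 0.577 (without mouse 6) and 0.716.

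Taken singly, each gene was correlated with the mean of the other 8. The coefficients were 0.93 for Ifit1, 0.92 for Ifit3, 0.89 for Usp18, 0.86 for Oasl1 and Oas1a, 0.83 for Isg15, 0.70 for Rsad2, 0.67 for Irf7 and 0.63 for Ifi44. Of 20318 other genes, 3 followed the same mean as closely as Ifit1 did, 8 as closely as Usp18, and 993 (4.89%) as closely as Ifi44. These are descriptions over the 16 mice, without a test.

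The genes whose pattern across the mice was most like the mean of the 9 (Pearson r over 16 mice, group means removed) were led by a transcript that the array names only by its place on chromosome 7 (chr7:111526943-111545093, mm9, r = 0.95). Rnf213 (r = 0.95), a large ubiquitin ligase, and Ifit3b (r = 0.95) came next. The others of the 10 were Nme4 (0.92), a mitochondrial nucleoside diphosphate kinase, Trim30d (0.92) and Trim34a (0.90) of the tripartite motif family, Gm10872 (0.91), Ifi27l2a (0.91), Mx1 (0.90) and Gpr146 (0.90), a receptor of the G protein-coupled kind. Mx1 was dim and well above background on 12 of the 16 arrays. None of these 10 passed an unadjusted limma p of 0.05 in any comparison, which is near the 3.25%, 3.88% and 2.67% of all genes. Without mice 6, 25 and 30 their r lay between 0.65 (Gm10872) and 0.92 (Rnf213). For comparison, 2.52% of the other genes had an r of at least 0.7 with the mean of the 9.

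The rest of the pathway was followed through fixed lists. Of 18 interferon ligands, 6 passed the filter (Ifna1, Ifna9, Ifna11, Ifna14, Ifnk and Ifnl3), and 6, Ifnb1 among them, were not well above background on any array. No ligand passed an unadjusted limma p of 0.05 in any comparison. The 3 receptor genes that passed the filter, the 17 sensing genes and the 7 inhibitors likewise had 0 at this threshold in the 3 comparisons. Of all genes 3.25%, 3.88% and 2.67% passed there, so 0 is near the background for lists of this size. In Conv + OM(HFD) vs. Conv + PBS, Conv + LM vs. Conv + PBS and Conv + OM(HFD) vs. Conv + LM mice the median log2 fold change was 0.11, -0.22 and 0.32 for the ligands, -0.13, 0.10 and -0.22 for the kinases and factors, and -0.00766, -0.01 and 0.02 for the further targets. Of the 5 kinases and factors, Jak1 was lower at this threshold in Conv + OM(HFD) vs. Conv + LM mice (log2 fold change -0.22 ± 0.10 SE). Of 36 further targets, Herc6, a ligase for Isg15, was lower in Conv + LM vs. Conv + PBS mice (-0.39 ± 0.15 SE). Sp100, a protein of nuclear bodies, was higher in Conv + OM(HFD) vs. Conv + LM mice (0.47 ± 0.15 SE). These are 1 of 5 and 1 of 36 genes where 2.67% of all genes passed, and 1 of 36 where 3.88% did, so the further targets were near the background. All 3 had an adjusted limma p of at least 0.998. Herc6 missed the unadjusted threshold with the authors' processed values (-0.14), and Jak1 when mouse 26 was left out (-0.14).

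From mouse to mouse, many of the pathway genes moved with the 9 genes. The mean of the 36 further targets had r = 0.97 with the mean of the 9 (0.90 without mice 6, 25 and 30), and 34 of the 36 were above 0. At an r of at least 0.7 stood 19 of these 36 genes, led by Rnf213, Ifi27l2a and Mx1, while Trim25 (-0.58) and Tor3a (-0.39) ran the other way. Of the 17 sensing genes 5 reached 0.7, namely Ddx58, Ifih1 and Dhx58, the RNA sensors that are themselves interferon targets, together with Irf5 and Ikbke. The median over the 17 was 0.45 and 13 were above 0. Mb21d1 (-0.54), Myd88 (-0.53), Mavs (-0.36) and Ticam1 (-0.35) were below 0. Irf9 (0.76) was the closest of the kinases and factors, and Jak1 was near 0 (0.02). Il10rb (0.85) stood apart from Ifnar2 (0.33) and Ifnar1 (-0.29) among the receptors. As list means, the sensing genes had r = 0.90 with the mean of the 9, the receptors 0.86 and the kinases and factors 0.76, and 0.70, 0.72 and 0.64 without mice 6, 25 and 30. The mean of the ligands had r = 0.27 and that of the inhibitors 0.28 (0.39 and 0.04 without these mice), with no gene of either list at 0.7.

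GTPases driven mainly by interferon-gamma were taken as the nearest other response. All 10 that were measured had an unadjusted limma p above 0.05 in the 3 comparisons, where 3.25%, 3.88% and 2.67% of all genes passed, so that 0 of 10 is near the background, and the medians of their log2 fold changes were -0.22 in Conv + OM(HFD) vs. Conv + PBS, -0.10 in Conv + LM vs. Conv + PBS and -0.09 in Conv + OM(HFD) vs. Conv + LM mice. Among themselves 30 of their 45 pairs had an r of at least 0.7 (median 0.75). With the 9 genes, 16 of 90 pairs did (median 0.55), and the mean of the GTPases had r = 0.68 with the mean of the 9 (0.56 without mice 6, 25 and 30). Gbp5 ran against the mean of the 9 (-0.64) while Ifi47 (0.80) and Gbp3 (0.78) ran with it.

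**Figure D5:**
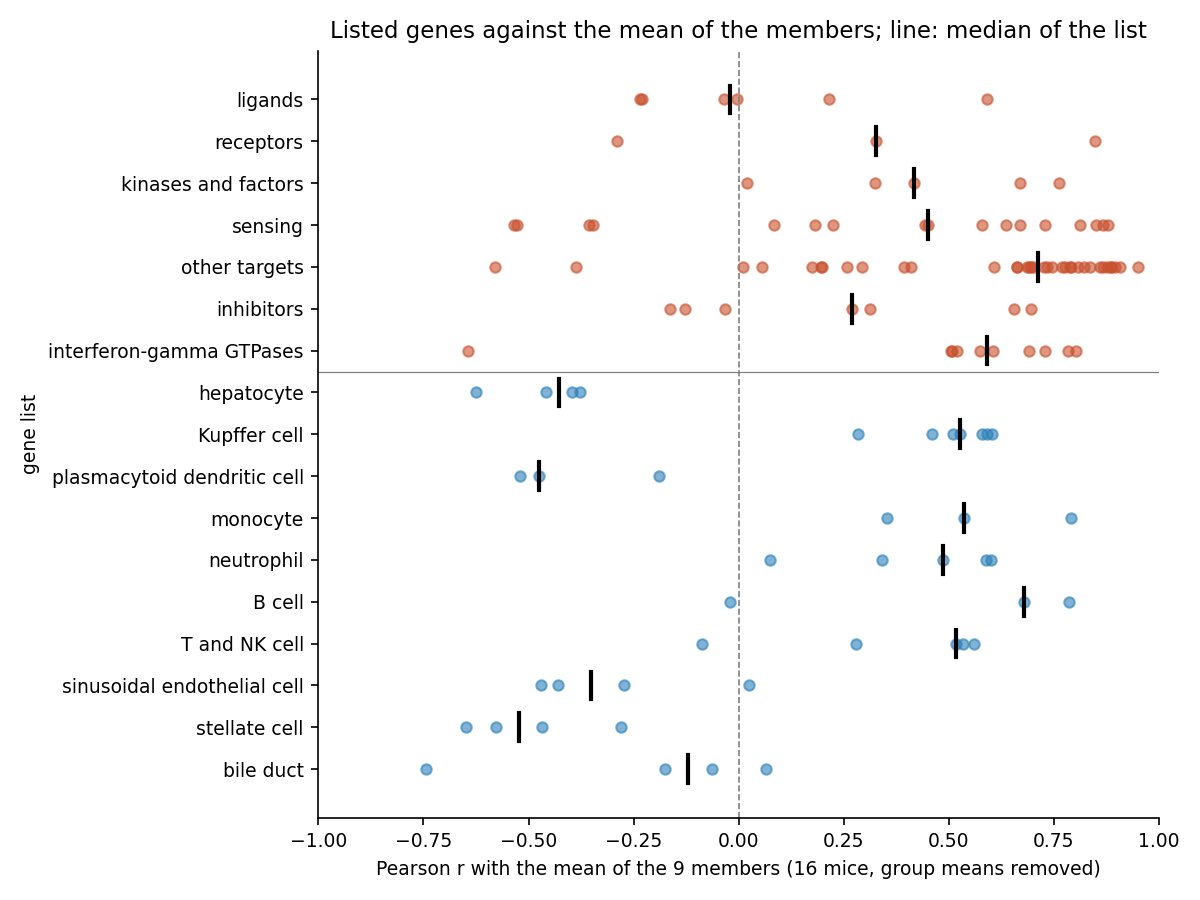
Pearson r of each listed gene with the mean of the 9 genes across 16 mice, group means removed (x axis), by list (y axis), with pathway genes in orange, cell type markers in blue and a black line at the median of each list. The further targets reach from -0.58 to 0.95 with a median of 0.71, and all hepatocyte markers are below 0.

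Markers of other cells also moved with the 9 genes. For monocytes 3 of 4 and for B cells 3 of 4 markers passed the filter, and the mean of each list had r = 0.77 and 0.76 with the mean of the 9, and 0.39 and 0.32 without mice 6, 25 and 30. Log2 of the summed monocyte markers ran from 2.84 to 4.18 in Conv + PBS, from 2.61 to 3.53 in Conv + LM mice, and between 2.84 and 3.46 in the Conv + OM(HFD) group. That of the B cell markers ran from -1.44 to 0.58, from -0.82 to 0.55 and from -1.02 to 0.94. Neutrophil, T and NK cell and Kupffer cell markers had r = 0.56, 0.54 and 0.51, and 0.30, 0.08 and 0.19 without the 3 mice. The 4 hepatocyte markers had r = -0.66 (-0.76 without the 3 mice), stellate cell markers -0.64 (-0.46), sinusoidal endothelial markers -0.54 (-0.44), plasmacytoid dendritic cell markers -0.51 (-0.13) and bile duct markers -0.32 (-0.23). Of the plasmacytoid dendritic cell markers, Siglech had group means from 7.69 to 7.86 and Ccr9 from -2.62 to -2.43. Whether the probes of this list follow that cell in whole liver was not tested. The 75th percentile of the array had r = 0.49, the share of probes above background 0.25 and slide 2 against slide 1 -0.29. In the comparison of conditions, 2 of 5 T and NK cell markers (Cd3g and Klrb1c), 1 of 4 sinusoidal endothelial markers (Clec4g) and 2 of 4 stellate cell markers (Dcn and Lrat) were lower in the Conv + OM(HFD) group than in Conv + PBS mice at an unadjusted limma p under 0.05, as was Lrat against Conv + LM mice. Over all genes 3.25% and 2.67% passed in these comparisons, and after adjustment no marker did. The part of these cells and of the array measures in the coordination of the 9 genes was not tested.

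Between slides, the deviations from the group means were lower on slide 2 than on slide 1 for 8 of the 9 genes, by up to 0.48 on the log2 scale for Ifi44, and for Irf7 they were 0.11 higher. Within slide 1 the median log2 difference of the 9 genes was 0.02 in Conv + OM(HFD) and -0.05 in Conv + LM vs. Conv + PBS mice. Within slide 2 these were -0.02 and -0.05. For Conv + OM(HFD) vs. Conv + LM mice they were -0.08 within slide 1 and 0.00481 within slide 2.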

How the data were processed

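Liver RNA of 16 mice was measured on 1-colour Agilent SurePrint mouse arrays, 1 per mouse. Samples were grouped by their labels, with the controls, labelled as not transplanted, taken as Conv + PBS. The authors extracted the signal of the scanned slides with Agilent Feature Extraction 10.10.1.1 (per the submitters' processing notes), and the deposited intensity of each spot is corrected for background on a linear scale and not normalized between arrays. The authors also deposited log2 values, which matched log2 of the median spot signal after quantile normalization, and this step is not described in the methods. The precision is limited by 5 or 6 arrays per group.

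Control spots and spots with an outlier flag were left out, repeated spots were averaged per probe, and values were set on the log2 scale relative to their array's 75th percentile. Probes well above background on at least 5 arrays were kept, and the brightest one on average stood for a gene (20403 of 37074 gene names). Of the names tested, 14634 were current RefSeq symbols and 701 synonyms. All 3 groups entered 1 fit with limma 3.58.1 (lmFit and eBayes, R 4.3.3, with the data.table package at version 1.17.8), with Benjamini-Hochberg adjustment over all genes tested. Exact permutation tests (scipy 1.17.1) can reach no p below 0.00433 for 5 mice against 6 and 0.00794 for 5 against 5. Correlations were computed in Python 3.11.15 (numpy 2.4.6, pandas 2.3.3) on deviations from group means and leave out 76 genes with a missing value, and plots were drawn with matplotlib 3.10.9. The fits and correlations were first tested on simulated data.

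The 9 genes, the lists of ligands, receptors, kinases and factors, sensing genes, further targets, inhibitors, interferon-gamma GTPases and cell type markers, and the tests were chosen with earlier results of these data known. Genes named are the 9, listed pathway genes or GTPases at an unadjusted limma p under 0.05, the 10 genes most like the mean of the 9, and the genes at the ends of a list, which were picked after their values were seen. Ifna6, Ifnl2, Ifi203 and Tgtp1 carry no probe under these names. The alternatives were normexp background correction (offset 50), quantile normalization, the authors' processed values, no filter, only probes above background on all 16 arrays, averaging a gene's probes, the slide as a block, a fit to the compared mice alone, array weights, an unpaired t-test (listed in the study's general methods, which name no test for the arrays) and leaving out each mouse. Leaving out mice 25 and 30, or these with mouse 6, was added after the values were seen.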

Additional observations from a re-analysis of the deposited data

How the results depend on the processing

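In each comparison 0 of the 9 genes passed an unadjusted p of 0.05 under every alternative run, without each mouse in turn and without mice 25 and 30. Without single mice, their median log2 fold change turned in sign in each comparison and ran from -0.16 to 0.19 in Conv + OM(HFD) vs. Conv + PBS, from -0.15 to 0.10 in Conv + LM vs. Conv + PBS and from -0.27 to 0.16 in Conv + OM(HFD) vs. Conv + LM mice. The number of genes at p under 0.05 in the last comparison, 545, was 862 with the slide as a block. The median pair correlation, 0.675, ran from 0.568 (Spearman's rho) to 0.714 over the planned settings, from 0.577 to 0.716 without single mice, was 0.633 without mice 25 and 30 and 0.366 without mice 6, 25 and 30, where 13 mice remained. No paired analysis was possible because the groups share no mouse number.

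The signs of some differences turned. With array weights, Isg15 (-0.0107) and Oas1a (-0.00346) turned in Conv + OM(HFD) vs. Conv + PBS and Usp18 (-0.0118) in Conv + LM vs. Conv + PBS mice. Usp18 also turned there with normexp (-0.00518) and the authors' values (-0.0172), and Ifit1 (0.00330) with normexp in Conv + OM(HFD) vs. Conv + LM mice. With the slide as a block, Oas1a turned in Conv + LM vs. Conv + PBS (0.00908) and Ifi44 in Conv + OM(HFD) vs. Conv + LM mice (-0.040), as Ifi44 did without mice 25 and 30 (-0.10), where Oas1a was -0.00937 in Conv + OM(HFD) vs. Conv + PBS mice. Without single mice, the ranges that crossed 0 in Conv + OM(HFD) vs. Conv + PBS mice were -0.27 to 0.19 for Oasl1, -0.13 to 0.30 for Isg15, -0.16 to 0.22 for Oas1a, -0.019 to 0.18 for Irf7, -0.10 to 0.25 for Usp18, -0.053 to 0.32 for Rsad2, -0.32 to 0.00236 for Ifi44 and -0.55 to 0.00803 for Ifit1. In Conv + LM vs. Conv + PBS mice they were -0.27 to 0.062 for Ifit3, -0.14 to 0.10 for Oas1a, -0.15 to 0.12 for Usp18 and -0.37 to 0.017 for Ifit1. In Conv + OM(HFD) vs. Conv + LM mice they were -0.39 to 0.17 for Ifit1, -0.27 to 0.16 for Isg15, -0.15 to 0.23 for Oas1a, -0.12 to 0.21 for Ifi44, -0.11 to 0.24 for Usp18, -0.33 to 0.042 for Ifit3 and -0.31 to 0.062 for Rsad2. The cause of these turns was not tested. Of the pathway genes named, Sp100 kept its side of the threshold under every alternative, while Herc6 lost it under 3 planned settings and without either of 2 single mice, and Jak1 under 2 settings and without any of 7 single mice. The probe that stands for each of the 9 genes was well above background on every array, so signal over background limits the ligands more than these genes.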
